A study of Mus musculus with 6 samples.

Results

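The genes described here are those of the cytosolic and mitochondrial ribosomal proteins of mouse. They were taken from a table of raw counts as every symbol that starts with Rpl or Rps and a digit (without the S6 kinase genes, whose names start with Rps6k) or with Mrpl or Mrps and a digit, with at least 10 counts summed over the 6 libraries. The rule gave 159 of the 14535 genes in the table, and all 159 symbols of this form met the minimum. By the prefix of the symbol, 42 genes were placed in the cytosolic large subunit and 30 in the cytosolic small subunit. By the same means 47 were placed in the mitochondrial large subunit and 29 in the mitochondrial small subunit. The remaining 11 are 7 paralogs (of which GENCODE M21 lists Rps4y2 as a transcribed processed pseudogene and 6 as protein-coding), 3 further pseudogenes and Rps19bp1, whose product binds a ribosomal protein and is not one itself. The rule used names and total counts, and no difference between groups. Subunit names below refer to these classes by prefix. Whether each protein belongs to the subunit of its class, or to a ribosome at all, was not checked.

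The study profiled total RNA of type 2 conventional dendritic cells (cDC2s) from spleen, which take up antigen and present it to T cells and which express the transcription factor IRF4. The 3 wild-type (WT) libraries come from C57BL/6 mice. The 3 IRF4-deficient libraries come from C57BL/6 CD11c-Cre Irf4fl/fl mice, in which the CD11c (Itgax) promoter drives Cre recombinase and the loxP-flanked part of Irf4 is deleted in cells that express CD11c. No library carries Cre alone or the floxed allele alone, so their effects cannot be told apart from the loss of Irf4. Age and sort gate are not given in the labels. The labels do not say whether replicates are separate mice, so a p-value here reflects how far these libraries spread, which may be a technical spread. In bulk samples, fewer cells of a type and less RNA per cell cannot be told apart.

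Cytosolic ribosomes translate the messages of nuclear genes, and each of their proteins is made from a nuclear gene and joined to ribosomal RNA, mostly in the nucleolus. Mitochondrial ribosomes translate the few messages of the mitochondrial genome, all for oxidative phosphorylation subunits, and their proteins are nuclear-encoded and imported. Messages of cytosolic ribosomal proteins begin with a run of pyrimidines that places their translation under control of mTOR, and dendritic cells are known to raise and then lower protein synthesis as they mature.

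Totals ran from 7421605 to 11459920 counts per library, with 13772 to 14043 genes counted in each. Irf4, the targeted gene, stood at 90.8, 65.3 and 84.0 CPM in IRF4-deficient libraries 1 to 3 and at 292, 296 and 345 CPM in the 3 WT replicates (CPM, each count over its TMM-corrected library size). Each library thus matched its label. Among all 11934 tested genes edgeR called 9.87% higher and 10.5% lower in IRF4-deficient libraries (test given below). Of 13 cDC2 markers, a list that includes the targeted gene Irf4 itself, all were detected, and 2 were higher and 8 lower. Of 11 red pulp macrophage markers, 6 were higher and 1 lower, with summed levels of 1760 to 3199 CPM in IRF4-deficient and 1230 to 1580 CPM in WT libraries. Of 7 markers of type 1 conventional dendritic cells, 4 were higher and 1 lower, with summed levels of 285 to 379 CPM in IRF4-deficient and 222 to 236 CPM in WT libraries. Of 5 tested markers of plasmacytoid dendritic cells, 2 were higher and 1 lower, with sums of 199.7 to 229.6 and 210.5 to 249 CPM. Summed markers of B cells were at or below 145 CPM, those of T cells at or below 47.3 CPM and those of neutrophils at or below 7.82 CPM in every library. Of 7 B cell markers, 1 was higher and 2 lower, and of 6 tested T cell markers, 1 was higher and 0 lower. The 1 tested marker of natural killer cells was not called. No neutrophil marker had enough counts for the edgeR test. Their part in the results for ribosomal protein genes was not tested.

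The promoters and coding sequences of these genes carry 2 features that the results below refer to. RefSeq promoters (GRCm38.p6, 250 bases before to 50 bases after the annotated start) were found for 53 cytosolic and 67 mitochondrial genes, 63 and 73 promoters in all. An uninterrupted run of at least 8 pyrimidines that lay within 50 bases of the start was present in 82.5% of cytosolic promoters, 35.6% of mitochondrial promoters and 35.7% of all 32851 promoters. The minimum length of the run was chosen after the sequences were seen. The ETS motif CCGGAAG, on either strand, was in 34.9% of cytosolic and 32.9% of mitochondrial promoters, against 8.86% of all promoters. The YY1 motif AAGATGG was in 17.5%, 17.8% and 6.34% and the SP1 motif GGGCGG in 60.3%, 52.1% and 35.7%, in the same order. The NRF1 motif was in 3.17%, 4.11% and 0.971%. TATAAA was in 7.94%, 6.85% and 13.6%. A C at the annotated start stood in 31.7%, 15.1% and 16.3%.

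Promoter windows from 80 bases before to 20 bases after the start are shown for the most highly counted cytosolic gene (Rpl4) and another with a pyrimidine run (Rps9), and for a cytosolic and a mitochondrial gene with the ETS motif (Rps3a, listed by RefSeq as Rps3a1, and Mrpl33). They lie at chr9:64173307-64173406 (plus strand), chr7:3703961-3704060 (plus strand), chr3:86142649-86142748 (minus strand) and chr5:31613871-31613970 (plus strand). The promoter of Mrps25, the gene called different below, is at chr6:92184004-92184103 (minus strand). Capitals mark the pyrimidine run in Rpl4 and Rps9 and the ETS motif in Rps3a and Mrpl33. Of the Mrps25 window no base is in capitals, since neither feature is in it.
Rpl4: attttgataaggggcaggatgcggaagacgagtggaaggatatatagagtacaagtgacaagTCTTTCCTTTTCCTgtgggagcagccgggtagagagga
Rps9: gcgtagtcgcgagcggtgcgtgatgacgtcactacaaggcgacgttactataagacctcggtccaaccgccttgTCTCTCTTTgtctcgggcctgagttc
Rps3a: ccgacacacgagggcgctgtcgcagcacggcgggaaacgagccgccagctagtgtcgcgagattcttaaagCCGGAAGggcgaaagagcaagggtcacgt
Mrpl33: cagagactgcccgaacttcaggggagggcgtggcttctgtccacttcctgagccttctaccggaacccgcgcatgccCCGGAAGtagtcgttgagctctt
Mrps25: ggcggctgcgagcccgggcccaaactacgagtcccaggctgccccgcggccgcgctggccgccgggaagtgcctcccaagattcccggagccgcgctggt

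The second feature is sequence that a coding region has in common with other genes, since mammalian genomes hold many processed pseudogenes of cytosolic ribosomal protein genes. Each coding sequence of GENCODE M21 (GRCm38) was read in 50-base windows and searched for in the transcripts of all other genes. In the 72 cytosolic genes, a median of 92.4% of windows was also found in another gene, and 27 genes had no window of their own. In the 76 mitochondrial genes the median was 0%, and 51 had no shared window. The sharing genes numbered 1080 for the cytosolic proteins (summed over members), of which 1035 were annotated as pseudogenes, and 36 for the mitochondrial proteins, all of them pseudogenes. The windows shown are the central 50 bases of each coding sequence and illustrate windows found in no other gene (Rpl4, Rps3, Mrps25) and genes whose letters occur elsewhere (Rpl21, Rpl30, Rpl34, Mrpl23).
Rpl4: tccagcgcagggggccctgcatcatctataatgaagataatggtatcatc
Rps3: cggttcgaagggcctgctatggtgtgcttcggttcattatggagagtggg
Mrps25: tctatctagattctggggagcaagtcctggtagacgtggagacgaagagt
Rpl21: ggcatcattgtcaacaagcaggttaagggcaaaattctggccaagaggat
Rpl30: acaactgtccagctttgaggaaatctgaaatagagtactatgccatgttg
Rpl34: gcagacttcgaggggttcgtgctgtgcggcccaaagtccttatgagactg
Mrpl23: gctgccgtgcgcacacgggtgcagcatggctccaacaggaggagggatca

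The windows of Rpl4, Rps3 and Mrps25 occurred in 0 other genes. That of Rpl21 occurred in 26 other genes, that of Rpl30 in 8, that of Rpl34 in 2 and that of Mrpl23 in 1. How reads that fit several places were counted is not given in the sources used here, so counts of genes with shared windows are uncertain.

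Of these 159 genes, 153 had enough counts for the test, 70 of the cytosolic and 75 of the mitochondrial ribosome, 5 paralogs, 2 pseudogenes and Rps19bp1. Among all 11934 genes tested, 20.4% were called different between IRF4-deficient and WT cDC2s (edgeR quasi-likelihood test, Benjamini-Hochberg adjusted p under 0.05), 9.87% higher and 10.5% lower. Among the ribosomal protein genes 1 of 153 was called, Mrps25, which fell. No cytosolic gene was called by edgeR, DESeq2 or limma-voom, and 4 of 70 had an unadjusted p under 0.05 in edgeR. In the mitochondrial ribosome 6 of 75 had an unadjusted p under 0.05, and of all genes tested 31.7% did. With the comparison kept to genes with a mean of at least 5 CPM, 1 of 134 ribosomal protein genes was called, against 22.1% of all genes. Both shares are given as a description.

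The median log2 fold change (IRF4-deficient over WT) was 0.02 in the cytosolic large subunit, 0.05 in the cytosolic small subunit, 0.09 in the mitochondrial large subunit and 0.13 in the mitochondrial small subunit. Over all tested genes it was 0.00. The middle 50% of cytosolic genes lay between -0.06 and 0.12 and that of mitochondrial genes between -0.11 and 0.23, while that of all genes spanned -0.27 to 0.26. Log2 fold changes were above 0 in 43 of 70 cytosolic and 47 of 75 mitochondrial genes, against 50.3% of all genes. The cytosolic median was 0.15 without WT replicate 1 and -0.08 without WT replicate 3, so its sign depended on which WT library was left out. The mitochondrial median was 0.14 and 0.01 under the same changes.

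**Figure D1:**
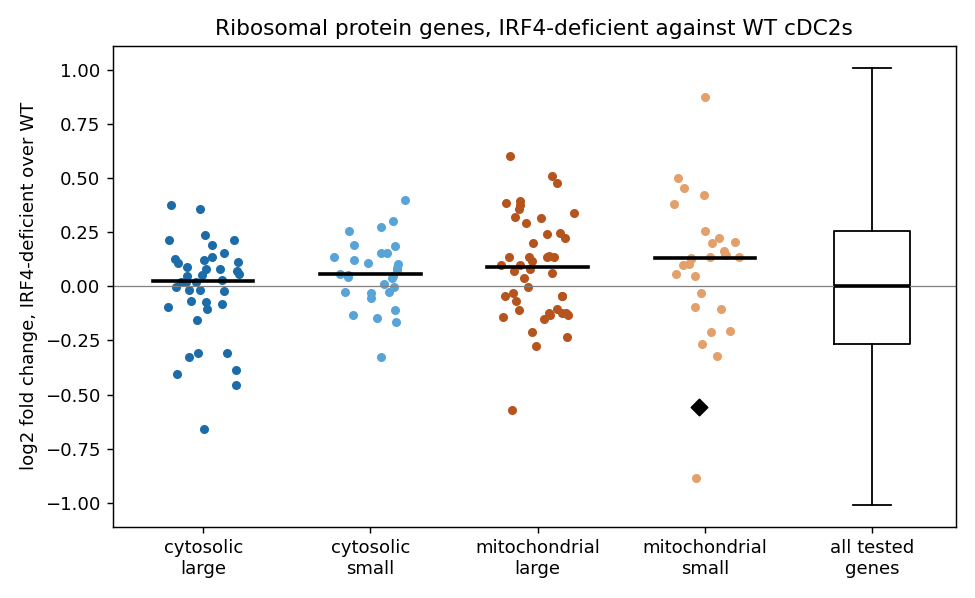
Log2 fold change (IRF4-deficient over WT, vertical axis) of each tested ribosomal protein gene (points). Genes are grouped by ribosome and subunit as classed by symbol prefix, with the median of each class as a bar. The black diamond is Mrps25, the only called gene, and the box gives the quartiles of all 11934 tested genes with whiskers from the 5th to the 95th percentile. The 4 class medians lie between 0.02 and 0.13, and most points lie within the range of the whiskers.

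A test that misses its threshold does not show equal levels, so the 95% interval of each fold change was read against a bound of 1.5-fold in either direction. The interval lay wholly inside that bound in 44 of 70 cytosolic genes (62.9%), in 28 of 75 mitochondrial genes (37.3%) and in 39.4% of all tested genes. With a mean of at least 5 CPM it did so in 55.2% of ribosomal protein genes and 47.4% of all tested genes. It did so in 30 of the 30 cytosolic genes with a mean of at least 50 CPM. The share over all genes at that level is not given here. Intervals are narrower at higher counts, so this count does not set these genes apart from others of like level. The median standard error (SE) was 0.16 in cytosolic and 0.23 in mitochondrial genes, against 0.19 over all genes, so smaller changes in the mitochondrial ribosome were harder to detect. Only Rps4y2 had a fold change of 2 or more. Over all 153 tested members the interval lay within the bound in 74, and for the others the interval took in a change of 1.5-fold in at least 1 direction.

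In the cytosolic large subunit, Rpl4, which lines the peptide exit tunnel, had the highest CPM. It was counted at 1180, 1161 and 1179 CPM in IRF4-deficient libraries 1 to 3 and 1147, 1030 and 907 CPM in the 3 WT replicates (GRCm38 chromosome 9, 64173375 to 64178666, plus strand). All 3 IRF4-deficient libraries stood above all 3 WT libraries, and they lay within a much narrower range. The log2 fold change was 0.19 with an SE of 0.08 (edgeR adjusted p = 0.117), and it was called when WT replicate 1 was left out (adjusted p = 0.0241). At the peptidyl transferase centre, Rpl8 had 273 ± 25.2 CPM in the IRF4-deficient cells, against 261 ± 49.7 CPM in WT (SD, n = 3 each), and Rpl3 had 46.9 ± 9.50 and 43.5 ± 1.73 CPM. Rpl10, which completes the same region late in assembly, had 14.5 ± 0.838 and 19.2 ± 5.92 CPM (log2 fold change -0.41, SE 0.23, edgeR adjusted p = 0.24).

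Around the exit tunnel, 7 members were tested with a median log2 fold change of 0.03. Rpl31, at the rim, stood at 6.35, 6.43 and 9.46 CPM in the IRF4-deficient libraries, against 12.03, 13 and 9.97 CPM in WT. The groups did not overlap, with the closest values in IRF4-deficient replicate 3 and WT replicate 3. Its log2 fold change was -0.66 with an SE of 0.27 (edgeR adjusted p = 0.0911), and it was called lower without IRF4-deficient replicate 3 (adjusted p = 0.0351). All windows of its coding sequence were shared, with 25 pseudogenes, so the gene from which these reads came is uncertain. Rpl35 (13.3 ± 0.619 against 10.4 ± 2.004 CPM), Rpl17 (11.9 ± 1.64 against 11.6 ± 1.38 CPM) and Rpl39 (76.8 ± 4.47 against 82.5 ± 15.5 CPM) were not called either.

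Rpl5 and Rpl11 form a complex with 5S ribosomal RNA and, when not built into ribosomes, bind Mdm2 and stabilise p53. Rpl5 was at 8.10, 7.04 and 6.57 CPM in the IRF4-deficient libraries, against 8.16, 10.1 and 8.61 CPM in WT, without overlap between the groups but with 8.10 and 8.16 CPM side by side. Rpl11 was at 11.1 ± 2.06 and 11.8 ± 0.706 CPM. The log2 fold changes were -0.31 (SE 0.27) and -0.08 (SE 0.24), and every coding window of both genes was shared. Rpl10a, of the L1 stalk that guides spent tRNA out, and Rpl12, at the base of the stalk that recruits elongation factors, had log2 fold changes of 0.02 (SE 0.20) and -0.02 (SE 0.36).

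In the cytosolic small subunit, Rps3, which lies at the mRNA entry and helps unwind incoming messages, had the highest CPM. It stood at 486, 498 and 404 CPM in the IRF4-deficient libraries, against 486, 452 and 400 CPM in WT, and the groups overlapped. The log2 fold change was 0.05, with a 95% interval from -0.15 to 0.25. Rps2, also at the entry, had a log2 fold change of 0.15 (SE 0.15), and at the mRNA exit Rps26 had 0.15 (SE 0.13) and Rps28 -0.15 (SE 0.56). Rps15 and Rps23, which reach toward the decoding centre, had 0.12 (SE 0.14) and 0.07 (SE 0.29). None of these 5 was called. Rps6, the substrate of S6 kinase downstream of mTOR, had 18.3 ± 8.11 and 18.8 ± 2.92 CPM, with a range from 11.02 to 27.1 CPM among IRF4-deficient libraries. Rps27a, made as a fusion to ubiquitin, had 7.94 ± 0.268 and 7.41 ± 1.98 CPM.

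Rps19, which is needed for maturation of the small subunit RNA and is mutated in Diamond-Blackfan anaemia, had the smallest adjusted p of the cytosolic genes. It was at 53.9, 43.9 and 54.3 CPM in the IRF4-deficient libraries, against 42.0, 41.4 and 32.0 CPM in WT (GRCm38 chromosome 7, 24884371 to 24889806, plus strand). The groups did not overlap, with IRF4-deficient replicate 2 close to WT replicate 1. The log2 fold change was 0.40 with an SE of 0.15 (edgeR adjusted p = 0.065), and the call was made without IRF4-deficient replicate 2 (adjusted p = 0.0402). Of its coding windows 80.5% were shared, with 15 pseudogenes. Rps19, Rpl31, Mrps28 and Mrpl42 were chosen for description after their values were seen.

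Groups did not overlap in 6 cytosolic genes with higher and 3 with lower levels in IRF4-deficient libraries, out of 70. Of all tested genes, 17.5% were higher and 18.1% lower without overlap, 35.6% in all. The higher genes included Rpl4, Rpl29, Rps3a, Rps19 and Rps25, and the 3 lower ones were Rpl5, Rpl24 and Rpl31. Rps3a, whose promoter is shown above, was at 148, 137 and 135 CPM in the IRF4-deficient libraries, against 132, 132 and 104 CPM in WT. Only WT replicate 3 was far from the rest.

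In the mitochondrial large subunit, 46 genes were tested and none was called by edgeR, with 2 at an unadjusted p under 0.05. DESeq2 and limma-voom called none there either. Mrpl17, with the highest CPM of the class, was at 50.2, 44.99 and 46.5 CPM in the IRF4-deficient libraries, against 59.9, 45.1 and 59.6 CPM in WT, and WT replicate 2 lay inside the IRF4-deficient range. Mrpl33, a small protein with a bacterial counterpart, was at 55.8, 36.3 and 46.5 CPM against 36.2, 34.9 and 34.6 CPM. All 3 IRF4-deficient values were higher, but IRF4-deficient replicate 2 lay next to WT replicate 1. Its log2 fold change was 0.40 (SE 0.16, edgeR adjusted p = 0.0852), and it was called without IRF4-deficient replicate 2 (adjusted p = 0.0203). Mrpl42 was at 17.2, 17.8 and 22.05 CPM against 17.8, 10.9 and 9.01 CPM, with WT replicate 1 inside the IRF4-deficient range. Its log2 fold change was 0.60 (SE 0.24, edgeR adjusted p = 0.0936), and 0.92 without WT replicate 1 (adjusted p = 0.0151).

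Mrps25, a mitochondrial small subunit protein that bacteria lack, was the only ribosomal protein gene called. It was at 13.9, 17.8 and 20.4 CPM in IRF4-deficient libraries 1 to 3 and at 27.1, 24.6 and 24.7 CPM in the 3 WT replicates (GRCm38 chromosome 6, 92169525 to 92184033, minus strand). Every IRF4-deficient library was below every WT library, and the spread was wider among the former. Levels were 17.4 ± 3.26 and 25.5 ± 1.40 CPM (SD, n = 3 each), 1.47-fold lower in IRF4-deficient cells, with a log2 fold change of -0.56, an SE of 0.19 and a 95% interval from -0.95 to -0.16 (edgeR adjusted p = 0.0435). The call depended on 5 of the 6 libraries. Without IRF4-deficient replicate 1 or 2 the adjusted p was 0.18 and 0.0863, without WT replicate 1, 2 or 3 it was 0.126, 0.0964 and 0.084, and it held without IRF4-deficient replicate 3. None of its coding windows was shared with another gene.

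Mrps28, also of the mitochondrial small subunit, had the largest increase in value, at 10.4, 8.16 and 16.5 CPM in the IRF4-deficient libraries, against 6.78, 4.36 and 8.20 CPM in WT. IRF4-deficient replicate 2 was just under WT replicate 3, so the groups overlapped. The log2 fold change was 0.87 with an SE of 0.32 (edgeR adjusted p = 0.0581), and it was called without IRF4-deficient replicate 2 (adjusted p = 0.031). Mrps5, at 2.95, 3.09 and 3.01 CPM against 5.12, 6.36 and 5.19 CPM, had groups that did not overlap. With 229 counts over all libraries its log2 fold change was -0.89 (SE 0.37, edgeR adjusted p = 0.104). Mrps14, with the highest CPM of the subunit, was at 44.5 ± 2.73 and 40.3 ± 2.07 CPM (log2 fold change 0.15, SE 0.13).

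Of the mitochondrial genes, 44 listed as having a bacterial counterpart had a median log2 fold change of 0.10, and 29 listed as having none had 0.12. Mrps28 stood in the second set. The sorting was not checked against protein sequences, so single genes may be misplaced. Mrps18a and Mrps18b, relatives of a bacterial protein, were put in neither set. The 3 proteins of the bS18 family, Mrps18a, Mrps18b and Mrps18c, differed by 0.13, -0.32 and -0.03 on the log2 scale (SE 0.25, 0.51 and 0.26). Without overlap, 5 of 75 mitochondrial genes were higher (Mrpl14, Mrpl15, Mrpl33, Mrps14 and Mrps26) and 3 lower (Mrpl53, Mrps5 and Mrps25), against 17.5% higher and 18.1% lower among all tested genes.

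**Figure D2:**
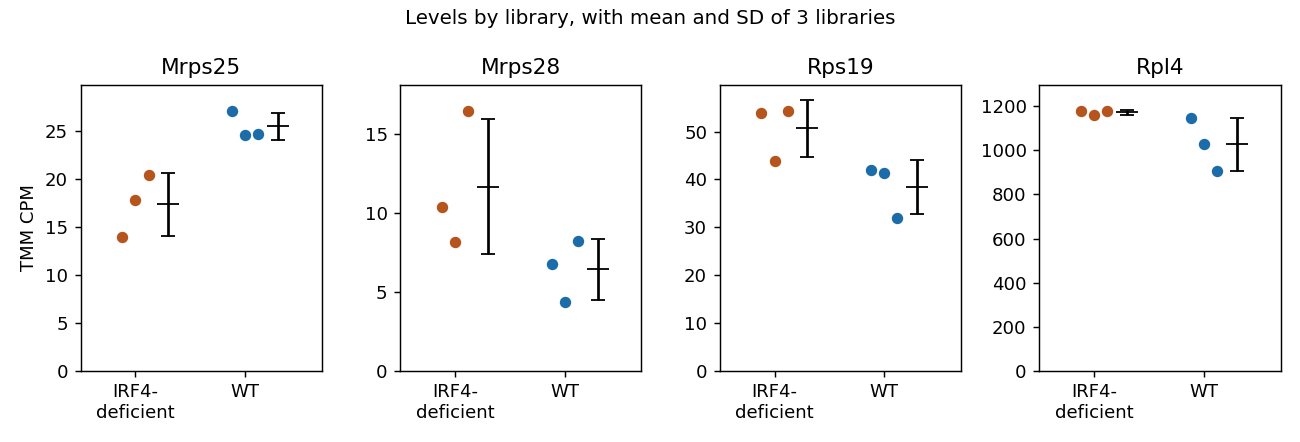
TMM-scaled CPM (vertical axes from 0, each with its own scale) of Mrps25, Mrps28, Rps19 and Rpl4 in each library (points), with the mean and SD of the 3 libraries of a group beside them. Mrps25 is lower in all 3 IRF4-deficient libraries, Rps19 and Rpl4 are higher in all 3, and the Mrps28 groups overlap.

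Paralogs were set beside their parent genes. Rpl22 was at 207 ± 8.45 and 221 ± 44.98 CPM in deficient and WT cells and its paralog Rpl22l1, which the Rpl22 protein is known to repress, at 15.2 ± 2.25 and 13.5 ± 3.83 CPM. Their log2 fold changes were -0.10 (SE 0.12) and 0.17 (SE 0.24). Rps27l, a known p53 target, was at 18.8 ± 0.731 and 16.01 ± 1.83 CPM (log2 fold change 0.23, SE 0.19), and Rps27 at 1.55 ± 0.432 and 1.49 ± 0.594 CPM. Rpl7 and Rpl7l1 had log2 fold changes of 0.22 (SE 0.14) and -0.03 (SE 0.18), and Rpl36a and Rpl36al -0.01 (SE 0.40) and -0.04 (SE 0.16). No paralog or parent gene was called by edgeR, DESeq2 or limma-voom, with 1 of the 5 paralogs (Rps4y2) at an unadjusted p under 0.05. Rps4x, the X-linked gene, had 0.09 (SE 0.12).

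Rps4y2, an older symbol of Rps4l, an autosomal paralog of Rps4x that the annotation lists as a transcribed processed pseudogene, was at 0.644, 1.11 and 1.56 CPM in the IRF4-deficient libraries, against 2.77, 2.82 and 2.19 CPM in WT. The groups did not overlap, at 97 counts over all libraries. Its log2 fold change of -1.24 with an SE of 0.55 was not called (edgeR adjusted p = 0.128). Rpl39l and Rpl3l, paralogs known from testis and muscle, had 30 and 15 counts and were not tested. The pseudogenes Rps15a-ps6 and Rps19-ps3 had log2 fold changes of 0.30 (SE 0.39) and 0.25 (SE 0.58), and Rps15a-ps4, with 37 counts, was not tested. Rps19bp1 was at 5.002 ± 0.806 and 5.91 ± 1.05 CPM.

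Counted levels differed widely among the genes of each ribosome. Per kilobase of merged exons, levels had a median of 15.7 CPM and a range from 0.119 to 548 CPM in the cytosolic genes, and a median of 5.52 CPM and a range from 0.0627 to 37.4 CPM in the mitochondrial genes. With the length of the principal transcript in place of merged exons, the medians were 35.1 and 9.57 CPM per kilobase. Rpl4 (716), Rpl32 (549) and Rps9 (513 CPM per kilobase of principal transcript) were among the highest, while Rpl34 had 0.502 and Rpl30 1.03. Among mitochondrial genes Mrpl52 (99.2) was highest and Mrpl23 (0.443) lowest on this scale.

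Levels followed the share of coding windows found in other genes. In the 11 cytosolic genes with under 50% of windows shared, the median over genes of the mean level was 267 CPM, with a range from 75.6 to 1101 CPM. From 50 to 90% it was 79.9 CPM in 20 genes, with a range from 0.313 to 183 CPM that includes the lowest level of any cytosolic gene, and at 90% or more it was 11.9 CPM in 41 genes, with a range from 1.52 to 108 CPM. Over the 72 cytosolic genes the Spearman rank correlation of counts with the shared share was -0.76 (between -0.76 and -0.75 in single libraries), as a description of genes that share libraries and annotation. Per kilobase of principal transcript it was -0.76, and with 100-base windows, which fit 71 genes, -0.75. Over the 76 mitochondrial genes it was -0.45, or -0.36 per kilobase and -0.50 with 100-base windows.

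The extremes show the range. Rpl4, with 20.2% of windows in 1 other gene, had 59062 counts over the 6 libraries, and Rps3, with 8.05% in 1 other gene, had 24358. Rpl21, with every window shared among 82 other genes, 81 of them pseudogenes, had 405. Rpl34 (71.5% shared, 9 other genes) had 6, 8 and 1 counts in IRF4-deficient and 0, 1 and 1 in WT replicates 1 to 3. Rpl30 (83.3%, 16 other genes) had 9, 5 and 4 against 4, 9 and 2 counts, and Mrpl23, the 1 mitochondrial gene with every window shared, had 2, 2 and 4 against 3, 3 and 2 counts. These 3 genes were not tested. Rpl41, with all windows shared and 108 CPM, departed from the trend.

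Median log2 fold changes were 0.06, 0.05 and 0.02 in the cytosolic genes with under 50%, 50 to 90% and at least 90% of windows shared. The median SE was 0.12, 0.14 and 0.24 in the same order, so the genes with the most shared sequence were measured least precisely. The interval lay within 1.5-fold in 11 of 11, 17 of 18 and 16 of 41 tested genes. The part of shared sequence in the low counts was not tested.

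**Figure D3:**
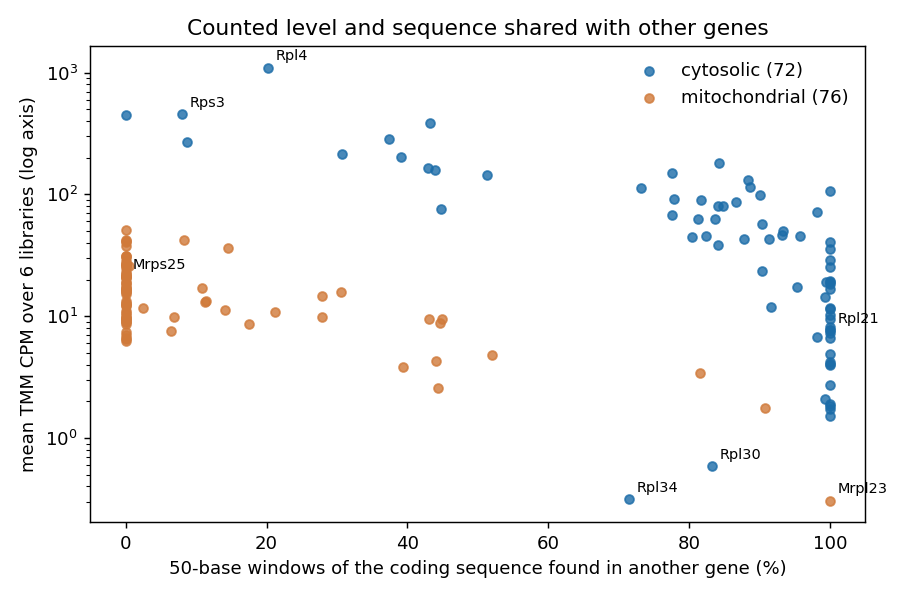
Mean TMM-scaled CPM over the 6 libraries (vertical log axis) against the percentage of 50-base coding windows that also occur in another gene (horizontal axis), for 72 cytosolic and 76 mitochondrial ribosomal protein genes. Cytosolic genes with under 50% of windows shared all lie above 75 CPM, those with at least 90% reach down to 1.52 CPM, and most mitochondrial genes lie at 0%.

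Summed over the cytosolic genes, counts made up 0.683, 0.658 and 0.654% of IRF4-deficient replicates 1 to 3 and 0.68, 0.607 and 0.504% of WT replicates 1 to 3. The means were 0.665 ± 0.0156% and 0.597 ± 0.0885% (SD, n = 3 each). The IRF4-deficient libraries lay close together, WT replicate 1 was inside their range, and WT replicate 3 was far below. In summed TMM-scaled CPM WT replicate 1, at 7005, was above the IRF4-deficient libraries, at 6315 to 6667. The mitochondrial genes made up 0.135 ± 0.00475% and 0.12 ± 0.0095%, with 0.131, 0.115 and 0.115% in WT replicates 1 to 3. Shares of counts depend on the other transcripts of a library, of which the ribosomal RNA precursor Rn45s and the long noncoding RNA Malat1 were the 2 examined. Rn45s stood at 5.26 to 7.61% in IRF4-deficient and 7.09 to 9.48% in WT libraries, and Malat1 at 1.64 to 2.18% and 2.76 to 3.71%. Without both, cytosolic genes made up 0.728 ± 0.025% and 0.675 ± 0.106%, with WT replicate 1 at 0.775% above the IRF4-deficient range of 0.702 to 0.752%.

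Within the WT group the cytosolic genes moved together, a pattern that was chosen for description after the values were seen. Of the 30 genes with a mean of at least 50 CPM, WT replicate 3 had the lowest WT level in 30 and WT replicate 1 the highest in 26. Their median log2 deviation from each gene's mean over 6 libraries was 0.19, 0.02 and -0.32 in WT replicates 1 to 3, but 0.09, 0.02 and 0.02 in IRF4-deficient replicates 1 to 3. Rps9 was at 425, 415 and 328 CPM in the WT libraries (SD 53.4) and at 412, 396 and 336 CPM in the IRF4-deficient libraries (SD 40.1). It shows the order of the WT libraries, but its IRF4-deficient libraries did not lie close together. WT replicate 1 was the highest and WT replicate 3 the lowest of all 6.

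The coefficient of variation of these 30 genes had a median of 18.4% among WT and 6.69% among IRF4-deficient libraries. Over all tested genes the medians were 12.2% and 14.2%, so the order was the opposite, and over the mitochondrial genes they were 14.6% and 15.3%. In the mitochondrial genes, WT replicate 3 was the lowest WT library in 29 of 75 (38.7%), near the 34.6% of all tested genes, and WT replicate 2 was in 37 (49.3%, against 29.5%). WT replicate 1 was the highest WT library in 42 of 75 (56.0%, against 33.3% of all tested genes). Its high level was therefore not particular to the cytosolic genes. Whether the spread differs between the genotypes was not tested, since it rests on 3 libraries in each.

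**Figure D4:**
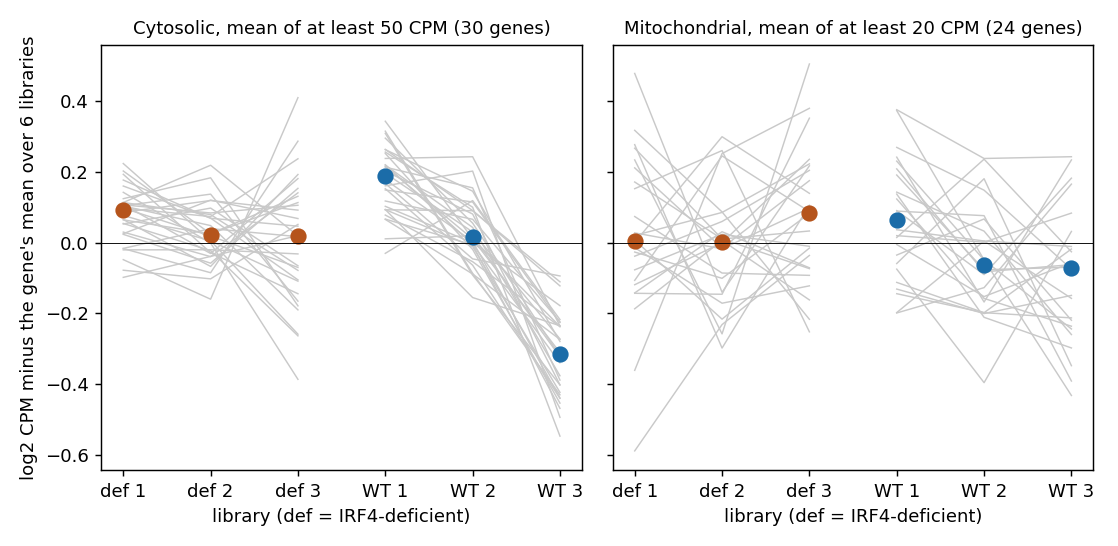
Log2 CPM of each gene minus that gene's mean over the 6 libraries (vertical axis) by library, for 30 cytosolic genes with a mean of at least 50 CPM (left) and 24 mitochondrial genes with at least 20 CPM (right). Grey lines join values of one gene within a group only to make genes traceable, and large dots are medians over genes. The cytosolic medians are 0.19, 0.02 and -0.32 in WT replicates 1 to 3 and lie between 0.02 and 0.09 in the IRF4-deficient libraries.

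Ribosomal proteins whose symbols the rule does not cover showed the same order of WT libraries. Of the 4 with at least 50 CPM (the stalk proteins Rplp0, Rplp1 and Rplp2, and Gnb2l1, an older symbol of the small subunit scaffold Rack1), all 4 were highest in WT replicate 1 and lowest in WT replicate 3 among WT. Rplp1 was at 162, 134 and 91.2 CPM there and at 106, 112 and 98.4 CPM in IRF4-deficient libraries, and Rplp2 at 234, 184 and 131 CPM and at 180, 180 and 184 CPM. Rplp1 was called lower only when WT replicate 3 was left out (log2 fold change -0.49, edgeR adjusted p = 0.00968, against -0.29 and 0.258 with it). WT replicate 3 was the lowest WT library for 18 of 31 translation factors at that level, 13 of 18 oxidative phosphorylation subunits, 4 of 13 ribosome assembly factors, 2 of 9 cell cycle genes and 0 of 3 genes of mitochondrial translation. Among all 3878 tested genes with at least 50 CPM it was the lowest in 33.8% and WT replicate 1 the highest in 29.2%.

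Levels of short and long transcripts also differed between libraries. Protein-coding genes outside the ribosomal set were split by exon length, and the shortest group of 10 equal groups (1118 genes, median 1448 bases) had a median log2 deviation of 0.06, -0.04 and -0.11 in WT replicates 1 to 3 and 0.04, 0.01 and 0.07 in IRF4-deficient replicates 1 to 3. In the longest group it was -0.02, 0.04 and 0.06 in the WT libraries and -0.02, 0.01 and -0.03 in IRF4-deficient replicates 1 to 3. WT replicate 1 and IRF4-deficient replicates 1 and 3 were thus above 0 in the shortest and below 0 in the longest group. The 70 tested cytosolic genes had a median deviation of 0.21, 0.09 and -0.03 in these libraries, in that order. Of 4 tested erythroid markers edgeR called 0, while DESeq2 and limma-voom each called 1, with 1 at an unadjusted edgeR p under 0.05. Summed over the 5 listed in the table, they reached 17.9 to 52.4 CPM in IRF4-deficient and 41.0 to 76.3 CPM in WT libraries. The haemoglobin row Beta-s was at 52.6, 37.1 and 18.4 CPM in WT replicates 1 to 3 and at 12.98, 34.6 and 23.3 CPM in IRF4-deficient replicates 1 to 3. The part of these in the order of the WT libraries was not tested.

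Other genes of the pathway are given from lists drawn up by function, whose counts stand beside the 9.87% of all tested genes called higher and 10.5% called lower. Of 14 ribosomal proteins with other symbols, edgeR, DESeq2 and limma-voom called 0, with 1 at an unadjusted edgeR p under 0.05 and a median log2 fold change of -0.05. Of 55 factors that assemble ribosomes, 2 were called higher and 0 lower, with a median of 0.11, so fewer were called than over all genes (20.4% in either direction). Pes1, which acts in large subunit maturation, rose from 27.1 ± 2.48 to 40.6 ± 2.14 CPM (log2 fold change 0.59, SE 0.15, edgeR adjusted p = 0.00749, or 0.0572 without WT replicate 2). Gar1, of the box H/ACA particles that guide pseudouridylation, rose from 14.4 ± 0.944 to 21.5 ± 1.90 CPM (adjusted p = 0.0399), and lost the call without either IRF4-deficient replicate 2 or 3 or without any 1 of the WT libraries (adjusted p 0.067 to 0.118). The abundant nucleolar proteins Ncl and Npm1 differed by 0.03 and 0.06 on the log2 scale (SE 0.07 and 0.09).

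Of 14 RNA polymerase I genes, which transcribe ribosomal RNA, 1 was called higher, Cd3eap, an older symbol of the subunit Polr1g, with a list median of 0.01. It rose from 9.87 ± 1.17 to 16.1 ± 2.18 CPM (edgeR adjusted p = 0.0315), and the call was lost without IRF4-deficient replicate 2 (0.117), WT replicate 1 (0.0741) or WT replicate 2 (0.141). Of 30 tested genes of growth control, none was called higher and 2 were called lower, with a median of 0.00. Mxd1, which opposes Myc at shared binding sites, fell from 222 ± 39.6 to 126 ± 15.3 CPM (log2 fold change -0.82, SE 0.12, edgeR adjusted p = 0.000118). Rptor, the scaffold of mTOR complex 1, fell from 73.1 ± 5.44 to 56.7 ± 3.08 CPM (adjusted p = 0.035), a call that was lost without any library but IRF4-deficient replicate 2. Myc itself was at 56.2 ± 4.97 and 64.9 ± 7.65 CPM in deficient and WT cells (log2 fold change -0.21, SE 0.13).

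Of 43 cytosolic translation factors, 3 were called higher and 3 lower, against 20.4% of all tested genes called in either direction, with a median of 0.07. Eif4a2, an RNA helicase of the cap-binding complex, fell from 537 ± 13.02 to 362 ± 50.7 CPM (log2 fold change -0.57, SE 0.09, edgeR adjusted p = 0.000153). Eif5 and Eif5b, which act at start codon choice and subunit joining, fell by 0.37 and 0.23 on the log2 scale (SE 0.11 and 0.08). Eif3c, Eef1b2 and Eif3a rose by 0.29, 0.31 and 0.21 on that scale (SE 0.08, 0.11 and 0.07). Eif4a2 was called in each alternative tried, whereas the other 5 each lost the call in at least 1 fit without a library. The elongation factors Eef1a1 and Eef2, at 924 ± 16.4 and 1243 ± 55.5 CPM in the IRF4-deficient cells, against 888 ± 95.9 and 1102 ± 52.0 CPM in WT, were not called.

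Of 28 genes of mitochondrial translation and ribosome assembly, edgeR, DESeq2 and limma-voom called 0, with 2 at an unadjusted edgeR p under 0.05 and a median log2 fold change of -0.06. Of 74 nuclear-encoded oxidative phosphorylation subunits, 3 were called higher and none lower, with a median of 0.17 and 60 of 74 above 0. Over all tested genes 9.87% were called higher and 50.3% were above 0. The 3 called subunits included the ATP synthase proteins Atp5a1 (log2 fold change 0.28, SE 0.08) and Atp5b (0.30, SE 0.08). Both lost the call without WT replicate 2, with adjusted p of 0.0618 and 0.082 in edgeR. Atp5a1 also lost it without WT replicate 3 (0.0813) or IRF4-deficient replicate 2 (0.0519), and Atp5b without IRF4-deficient replicate 1 (0.0994).

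Of 26 cell cycle genes, 13 were called higher and none lower, against 9.87% and 10.5% of all tested genes, with a median of 0.52. Mki67, a proliferation marker, rose from 722 ± 8.34 to 1048 ± 99.05 CPM, and the replication helicase subunit Mcm5 from 31.0 ± 2.42 to 61.4 ± 10.8 CPM (edgeR adjusted p = 5.59e-05 and 6.75e-05). A list of p53 targets also held Trp53, the gene of p53 itself. Of the 14 tested genes of that list, none was called higher and 3 lower, against the same shares of all genes, with a median of -0.23. The 3 were the cell cycle inhibitor Cdkn1a, from 33.2 ± 2.91 to 16.3 ± 3.86 CPM, Sesn2, which restrains mTOR complex 1, from 58.01 ± 6.83 to 38.1 ± 3.19 CPM, and Ccng1, from 197 ± 13.8 to 149 ± 34.6 CPM (edgeR adjusted p = 0.000619, 0.00344 and 0.043). Cdkn1a and Sesn2 were called in each alternative tried, and Ccng1 kept its call among the fits without 1 library only without IRF4-deficient replicate 3 (adjusted p 0.051 to 0.181 in the others).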

How the data were processed

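Per the labels, total RNA of splenic cDC2s was sequenced as Illumina libraries. The authors deposited raw counts per gene symbol for 3 IRF4-deficient and 3 WT libraries. STAR, HTSeq and DESeq2 (no versions) and build mm10 are named, per the submitters' processing notes. Annotation, strandedness and any row filter are not given in the sources used for this work, so overlapping or antisense genes cannot be told apart. WT columns carry other numbers than the titles and were matched through the labels' source names. All 159 symbols matched GENCODE M21, 2 of them through an older symbol.

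Counts were filtered with filterByExpr (11934 genes kept), scaled by TMM and tested with edgeR 4.0.16 (quasi-likelihood, robust, prior count 0.125, R 4.3.3) over all genes. The SE was derived from the F statistic. The members, the gene lists and the tests were chosen with earlier results of these data known. Named are called members, the most abundant of each class, paralogs with their parents, members of short role groups, and listed genes with the smallest p or at least 50 CPM. Rps19, Rpl31, Mrps28, Mrpl33, Mrpl42, Mrps5, Rps9 and others outside this rule were chosen after their values were seen. Libraries within a group differed by more than counting error (chi-square over degrees of freedom 7.66 to 15.9), so each counted as 1. Alternatives were DESeq2 1.42.0, limma-voom (limma 3.58.1), other scalings and filters, no robust shrinkage, removal of Rn45s and Malat1, the replicate number as a block, and leaving out each library. The principal transcript length, 100-base windows and counts per kilobase were alternatives added after the values were seen. The fit was run on simulated data with known changes, with the same dispersion for all genes and each gene drawn independently. That run does not cover genes that move together within a library, and its outcome is not given here. Some genes that were tested and enter the counts are not reported here by name.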

Additional observations from a re-analysis of the deposited data

How the results depend on the processing

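Scaling by library totals alone gave 2610 genes called against 2429, of which 61.5% were higher against 48.5%, and moved the median log2 fold change of all genes to 0.08. It called 2 cytosolic genes higher (Rpl4 and Rps19), 2 mitochondrial genes higher (Mrpl33 and Mrps28) and 0 mitochondrial genes lower, with a mitochondrial median of 0.18, or about 0.10 above that of all genes. Libraries with equal replicate numbers in their titles had correlations of deviations of -0.00, 0.05 and -0.01. The WT columns carry other numbers, but every pair of an IRF4-deficient and a WT library lay between -0.04 and 0.05. With the title number as a block edgeR called 2267 genes. Of the mitochondrial genes, 1 was then higher (Mrps28, edgeR adjusted p = 0.0404) and 0 lower (Mrps25, edgeR adjusted p = 0.059). Leaving out 1 library gave 0 to 1 cytosolic genes called higher and 0 to 1 lower, 0 to 3 mitochondrial genes higher and 0 to 1 lower, a cytosolic median from -0.08 to 0.15, a mitochondrial median from 0.0079 to 0.14, and 1779 to 2431 genes called. By principal transcript length the median level per kilobase was 35.1 CPM against 15.7 in cytosolic and 9.57 against 5.52 in mitochondrial genes. DESeq2, limma-voom, DESeq2 size factors, upper-quartile factors, TMM without ribosomal protein genes, no filter, a filter of 5 CPM, no robust shrinkage and removal of Rn45s and Malat1 each called Mrps25 and no other ribosomal protein gene. Precision differed, with a median SE of 0.24 in cytosolic genes with at least 90% of windows shared and 0.23 in mitochondrial genes, against 0.12 in cytosolic genes with under 50% shared. The part of shared sequence in the low counts was not tested.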
